A study of Mus musculus with 8 samples.

Results

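The values of 10 genes that mark fat cells were read array by array in 8 subcutaneous (s.c.) tumours of mice. The genes were Adipoq, Lep, Retn, Cfd, Fabp4, Plin1, Cidec, Scd1, Pck1 and Pparg, chosen by symbol, each with its probe set of highest mean log2 signal. Of the 10 genes, 8 were paired with a probe set in the annotation used here, among 18194 genes in all, and 6 of these 8 (Adipoq, Retn, Fabp4, Cidec, Scd1 and Pparg) reached the signal needed for testing. The tumours had been grown from MOPC cells, a murine oropharyngeal carcinoma line of which 2000000 cells were injected under the skin for the day 6 arrays. The hosts were Tlr3/7/9-/- mice (KO), which lack the endosomal Toll-like receptors 3, 7 and 9 in every host cell, or wild-type C57BL/6 mice (WT). Tumours of both genotypes were removed at day 6 (hosts 8 to 16 weeks old) and at day 4 (age not given), with 2 arrays in each of the 4 groups. The injected cells were the same line in all groups, so the genotype is that of the host and not of the carcinoma cells. The day 6 arrays came from 4 mice. Whether the arrays of a day 4 group stem from separate hosts is not stated in the sources used here, so the spread there need not be one between mice.

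White adipocytes store triglycerides in 1 large lipid droplet under a coat of proteins, and release fatty acids from it when energy is needed. They secrete hormones, the adipokines, and their identity is maintained by the nuclear receptor PPARγ together with factors of the C/EBP family. A layer of such cells lies in the lower skin, next to the place where s.c. tumours grow. In RNA of whole tumour pieces, fewer adipocytes and less RNA per adipocyte cannot be told apart.

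The arrays were comparable as a whole, with median signals of 133.2 to 175.2 and a Spearman correlation of 0.941 to 0.953 between the 2 arrays of a group over all probe sets. Tlr7 had 10.8 to 80.1 signal units in KO arrays and 382.9 to 673.4 in WT arrays, and Tlr3 had 224.0 to 427.2 in KO arrays and 543.9 to 811.1 in WT arrays. Tlr9, below the limit for testing, had 84.2 to 128.5 in KO arrays and 20.8 to 137.6 in WT arrays, and whether its probes lie in the deleted part is not known here. Xist, expressed from the inactive X chromosome of females, was 5579.1 to 7121 at day 6 and 44.6 to 142.1 at day 4, and Eif2s3y on the Y chromosome was 10.2 to 33.0 at day 6 and 798.1 to 1176.7 at day 4. The sex of the hosts and the day therefore cannot be told apart, and every difference between the days is also one between these 2 sets of hosts.

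Most of the adipocyte genes were highest and lowest in the same arrays. The second WT array of day 4 had the highest signal for 8 of 8 measured genes, an order met by 17.7% of the 12976 genes tested, and the first WT array of day 6 was second for 6 of 8, all but Pparg and Pck1. Both positions together were met by 2.52% of all tested genes. Pck1 met both as well in its probe set of highest mean linear signal (402.8 and 153.9). The first KO array of day 6 was lowest for 7 of 8 genes, all but Cidec, against 13.8% of all tested genes. These shares are descriptions of single arrays and carry no test. The first KO array of day 6 and the second WT array of day 4 also had the lowest and the highest median signal of the 8 arrays.

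**Figure D1:**
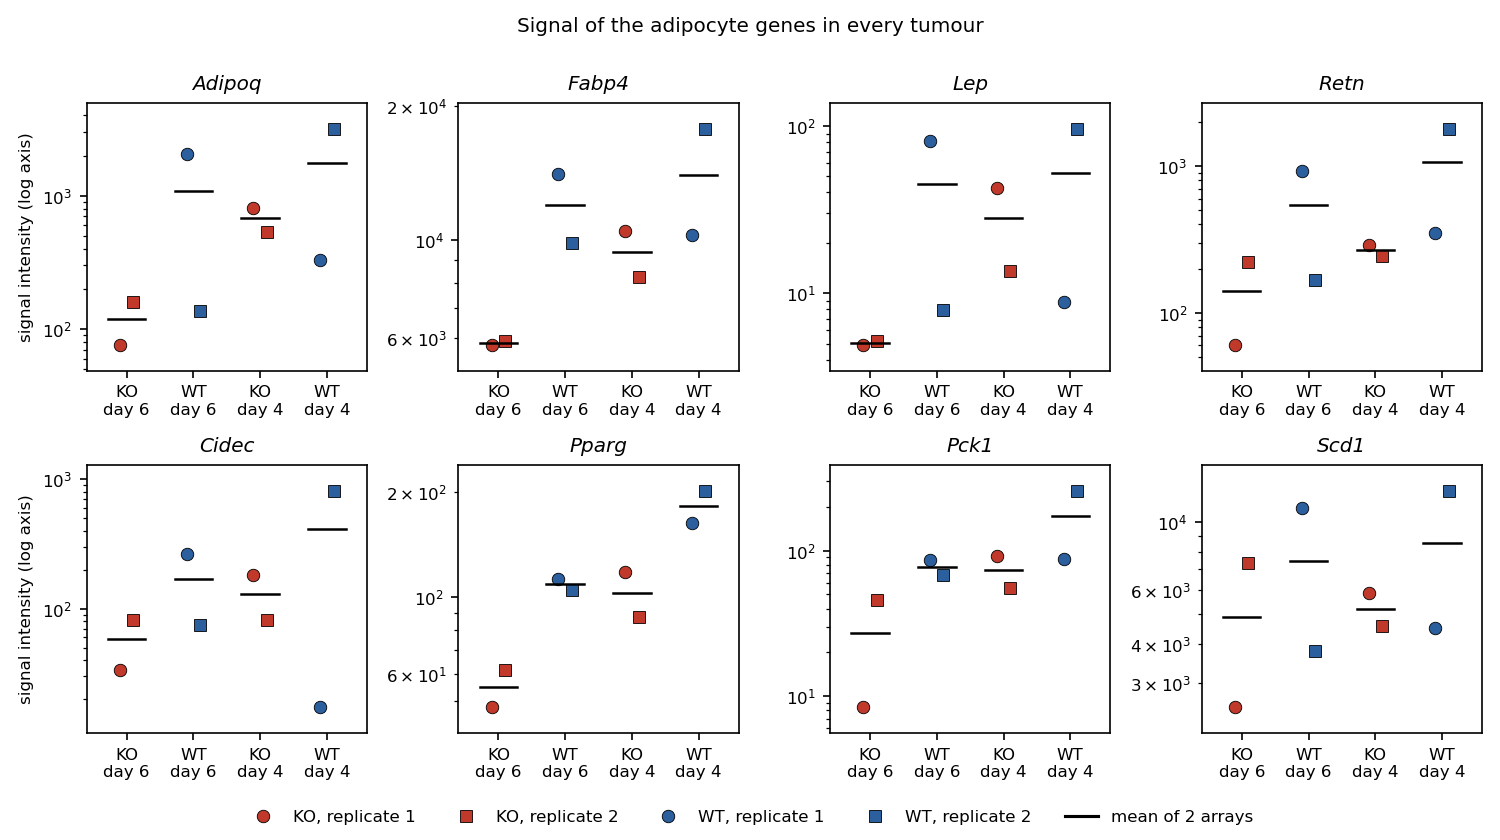
Signal intensity (log axis) of the 8 measured adipocyte genes in every tumour, by group, with circles for replicate 1, squares for replicate 2 and a black bar for their mean. In all 8 panels the highest point is replicate 2 of WT day 4, and for Adipoq the 2 WT arrays of day 6 stand 15.1-fold apart.

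Adipoq encodes adiponectin, the adipokine made almost only by mature adipocytes. Its signals were 76.0 and 160.7 in KO tumours of day 6, against 2044.3 and 135.7 in WT tumours of day 6. At day 4 they were 811.5 and 538.7 in KO tumours and 330.8 and 3174.0 in WT tumours. At day 4 the WT arrays lay on both sides of the KO arrays, and at day 6 the lower WT array lay between the 2 KO arrays. The ratio of the higher to the lower array was 2.11 in KO and 15.1 in WT at day 6, and 1.51 in KO and 9.59 in WT at day 4. On the log2(signal + 16) scale the KO effect at day 6 was -2.13 (SE 1.24, 95% interval -4.97 to 0.71, adjusted p = 0.834, limma), and at day 4 it was -0.63 (SE 1.24, adjusted p = 0.971). Without the second WT array of day 6 the estimate was -4.01, and without the first it was -0.25. The data thus allowed anything between a large deficit and a small excess of Adipoq in KO tumours.

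The Adipoq start site and the sequence before it are shown because all other profiles are set against this gene. The window (RefSeq, GRCm38.p6, chr16:23146286-23146585, plus strand, 5′ to 3′) holds none of the 3 motifs searched on both strands, which were AGGTCA (a half-site of nuclear receptors such as PPARγ), TTGCNNAA (bound by C/EBP factors) and TATAAA. These are found in 16.3%, 10.8% and 13.6% of 32851 windows of the same 300 bases.
Adipoq: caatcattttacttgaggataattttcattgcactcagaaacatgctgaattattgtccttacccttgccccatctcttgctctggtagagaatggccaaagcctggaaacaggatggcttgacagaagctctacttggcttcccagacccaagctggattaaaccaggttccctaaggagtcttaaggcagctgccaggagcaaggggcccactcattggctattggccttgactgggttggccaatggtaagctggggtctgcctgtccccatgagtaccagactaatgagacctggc

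Lep encodes leptin, the adipokine that reports fat stores to the brain, and was dim enough to stay below the limit for testing. Its signals were 4.9 and 5.2 in KO tumours and 81.4 and 7.9 in WT tumours at day 6, and 42.6 and 13.6 in KO tumours and 8.8 and 96.2 in WT tumours at day 4. The same 2 WT arrays as for Adipoq were the only ones above 50 (81.4 and 96.2), and both KO arrays of day 6 were below both WT arrays. In the fit of all genes the KO effect at day 6 was -1.20 (SE 0.84, adjusted p = 0.877, limma).

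Among the windows before the start sites of the measured genes, that of Lep has a C/EBP match close to the start, at positions -55 to -48, in capitals (chr6:29059971-29060270, plus strand). The match reads the same on both strands. A second start site of Cidec (chr6:113434715-113435014, minus strand) has 1 such match at positions -198 to -191, also in capitals.
Lep: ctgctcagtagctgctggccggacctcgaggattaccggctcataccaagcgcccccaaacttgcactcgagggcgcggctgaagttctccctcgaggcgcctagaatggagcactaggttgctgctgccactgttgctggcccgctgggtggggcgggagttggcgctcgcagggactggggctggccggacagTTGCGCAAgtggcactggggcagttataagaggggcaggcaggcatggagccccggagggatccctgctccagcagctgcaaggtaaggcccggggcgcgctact
Cidec: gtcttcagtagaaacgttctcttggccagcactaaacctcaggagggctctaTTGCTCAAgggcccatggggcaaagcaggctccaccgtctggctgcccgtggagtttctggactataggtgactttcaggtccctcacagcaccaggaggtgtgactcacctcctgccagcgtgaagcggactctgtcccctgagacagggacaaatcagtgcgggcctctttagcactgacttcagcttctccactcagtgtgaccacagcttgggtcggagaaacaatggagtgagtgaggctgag

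Of the 10 genes, 8 had a window in the table, 11 windows in all, and Fabp4 and Scd1 had none there. Plin1 has 2 C/EBP matches and the 3 Pparg windows hold matches to each of the 3 motifs, while those of Retn, Pck1, Cfd and the first Cidec start have no match. A match of letters is no evidence that a factor binds, and the part of such matches in the profiles over the arrays was not tested.

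Retn encodes resistin, in mice an adipokine of white fat. Its signals were 60.5 and 222.6 in KO tumours and 924.2 and 167.4 in WT tumours at day 6, and 290.5 and 244.8 in KO tumours and 347.6 and 1793.5 in WT tumours at day 4. At day 4 both KO arrays were below both WT arrays, while at day 6 the groups overlapped. The KO effect was -1.62 at day 6 (SE 0.92, adjusted p = 0.834, limma) and -1.52 at day 4 (SE 0.92, adjusted p = 0.838), so the 2 days gave nearly the same estimate and neither passed the test. Cfd, which encodes adipsin, a complement protease secreted by fat cells, is not paired with a probe set in the annotation used here and has no value.

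Fabp4 encodes the fatty acid carrier aP2 of adipocytes, which macrophages and capillary endothelium also make. Its highest signal was 3.08-fold its lowest, the smallest ratio among the 8 measured genes. It had signals of 5788.5 and 5901.6 in KO tumours and 14095 and 9850.6 in WT tumours at day 6. At day 4 the signals were 10485.4 and 8233.9 in KO tumours and 10244.5 and 17802.1 in WT tumours. The KO arrays of day 6 lay below all 6 other arrays and differed by 1.02-fold between themselves. The KO effect at day 6 was -1.01 (SE 0.26, 95% interval -1.61 to -0.41, adjusted p = 0.713, limma), and over both days it was -0.77 (SE 0.19, adjusted p = 0.354). Neither passed after adjustment over 12976 genes. A second probe set of Fabp4 had 1755.5 and 1637.8 in KO tumours and 6859.5 and 2672.2 in WT tumours at day 6, and 4919.5 and 5481.6 in KO tumours and 4134.2 and 10380.9 in WT tumours at day 4, again lowest in the KO arrays of day 6. The other 2 probe sets of the gene reached no more than 161.1.

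Cidec encodes a lipid droplet protein through which small droplets fuse into large ones. Its signals were 33.6 and 82.6 in KO tumours and 266.4 and 75.2 in WT tumours at day 6, and 180.9 and 81.5 in KO tumours and 17.4 and 815.4 in WT tumours at day 4. The 2 WT arrays of day 4 held both the lowest and the highest value of the gene, 46.9-fold apart. The KO effect at day 6 was -1.20 (SE 1.28, 95% interval -4.13 to 1.73, adjusted p = 0.902, limma), which leaves the direction unsettled. Plin1, which encodes perilipin, the coat protein that guards the droplet against lipases, is not paired with a probe set in the annotation used here.

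Scd1 encodes the desaturase that makes monounsaturated fatty acids, and is expressed in the sebaceous glands of skin as well as in fat. Its signals were 2496.7 and 7319.2 in KO tumours and 11069.8 and 3806.9 in WT tumours at day 6, and 5868.5 and 4566.8 in KO tumours and 4513.9 and 12610.7 in WT tumours at day 4. In the second KO array of day 6 only the 2 WT arrays named above had more Scd1, whereas Adipoq was higher in 5 arrays, and the groups overlapped on both days. The KO effect at day 6 was -0.60 (SE 0.65, 95% interval -2.10 to 0.89, adjusted p = 0.903, limma). A second, dimmer probe set ranged over 423.4 to 1245.7 with the same lowest and highest arrays. In that set the second KO array of day 6 had 650.2, with 5 arrays higher, as for Adipoq.

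Pck1 encodes cytosolic phosphoenolpyruvate carboxykinase, which supplies glycerol for triglycerides in fat. It was below the limit for testing, and its 3 probe sets did not give the same order of arrays. The set with the highest mean log2 signal had 8.4 and 45.6 in KO tumours and 86.3 and 68.1 in WT tumours at day 6, and 91.6 and 55.5 in KO tumours and 87.5 and 258.4 in WT tumours at day 4. The set with the highest mean on the linear scale had 0.5 and 1.6 in KO tumours and 153.9 and 42.4 in WT tumours at day 6, and 114.9 and 34.1 in KO tumours and 57.5 and 402.8 in WT tumours at day 4. Both put the KO arrays of day 6 below all 6 other arrays. The third set stayed between 2.7 and 44.7 and was lowest in WT tumours of day 4. For the first set the KO effect at day 6 was -1.26 (SE 0.60, adjusted p = 0.826, limma, fit of all genes).

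Pparg encodes PPARγ, the nuclear receptor that drives adipocyte differentiation and is also present in macrophages. Its signals were 48.1 and 61.5 in KO tumours and 112.0 and 104.7 in WT tumours at day 6, and 117.9 and 87.1 in KO tumours and 162.8 and 201.5 in WT tumours at day 4. Here the arrays of a group lay close together, with ratios of 1.07 to 1.35, and KO was below WT without overlap on both days. The KO effect was -0.82 at day 6 (SE 0.34, 95% interval -1.60 to -0.04, adjusted p = 0.776, limma), -0.75 at day 4 (SE 0.34, adjusted p = 0.722) and -0.78 over both days (SE 0.24, adjusted p = 0.442).

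Between KO and WT tumours of day 6, 0 of the 6 tested adipocyte genes passed the test (limma, adjusted p under 0.05), where 0.0154% of all tested genes did. Unadjusted, 2 of 6 had a p under 0.05, Fabp4 and Pparg, where 6.35% of all tested genes had one. A t-test, as named in the study's methods, gave 1 of 6 unadjusted, where 5.86% of all tested genes passed, and 0 of 6 after Benjamini-Hochberg adjustment, where 0% did. Fabp4 and Pparg were also the 2 of 6 whose KO arrays were all below the WT arrays, against 20.9% of all tested genes in that direction. The estimates of all 8 measured genes were below 0, as were those of 51.7% of all tested genes, and the median over the 6 tested ones was -1.10, beside -0.01 over all tested genes. Several of the estimates moved with single arrays of day 6. With 1 array left out they ranged from -2.21 to -0.18 for Lep, -2.80 to -0.44 for Retn, -2.01 to -0.38 for Cidec and -1.93 to -0.59 for Pck1, closest to 0 without the first WT array (Lep, Retn and Cidec) or the first KO array (Pck1). The genes were measured on the same 8 arrays, and 6 of 8 had the same 2 highest arrays, so they do not count as separate observations of that direction.

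At day 4, 0 of 6 genes passed (limma), where 0.0154% of all tested genes did, and 0 of 6 had an unadjusted p under 0.05, where 7.11% had one. Retn and Pparg were the 2 of 6 genes with KO below WT without overlap, against 16.8% of all tested genes. The 8 estimates were below 0 (48.3% of all tested genes), with a median of -0.59 over the 6 tested ones, beside 0.01 over all tested genes. Over both days together 0 of 6 passed, where 0.0308% of all tested genes did, 3 of 6 (Fabp4, Retn and Pparg) had an unadjusted p under 0.05 (8.69% of all tested genes), and the 8 estimates were below 0 (49.8%), with a median of -0.78 over the 6. No gene had all 4 KO arrays below all 4 WT arrays (0 of 6, 1.66% of all tested genes). Without the first WT array of day 4, Fabp4 passed over both days (-0.97, adjusted p = 0.0459), where 0.447% of all tested genes did in that setting. The difference between the KO effects at day 6 and day 4 was below 0 for the 8 measured genes (54.1% of all tested genes), between -1.50 for Adipoq (SE 1.76) and -0.06 for Scd1 (SE 0.93), and passed for 0 of 6, as for 0% of all tested genes (limma, adjusted p of at least 0.995). Unadjusted, 0 of 6 had a p under 0.05, where 4.38% of all tested genes had one.

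**Figure D2:**
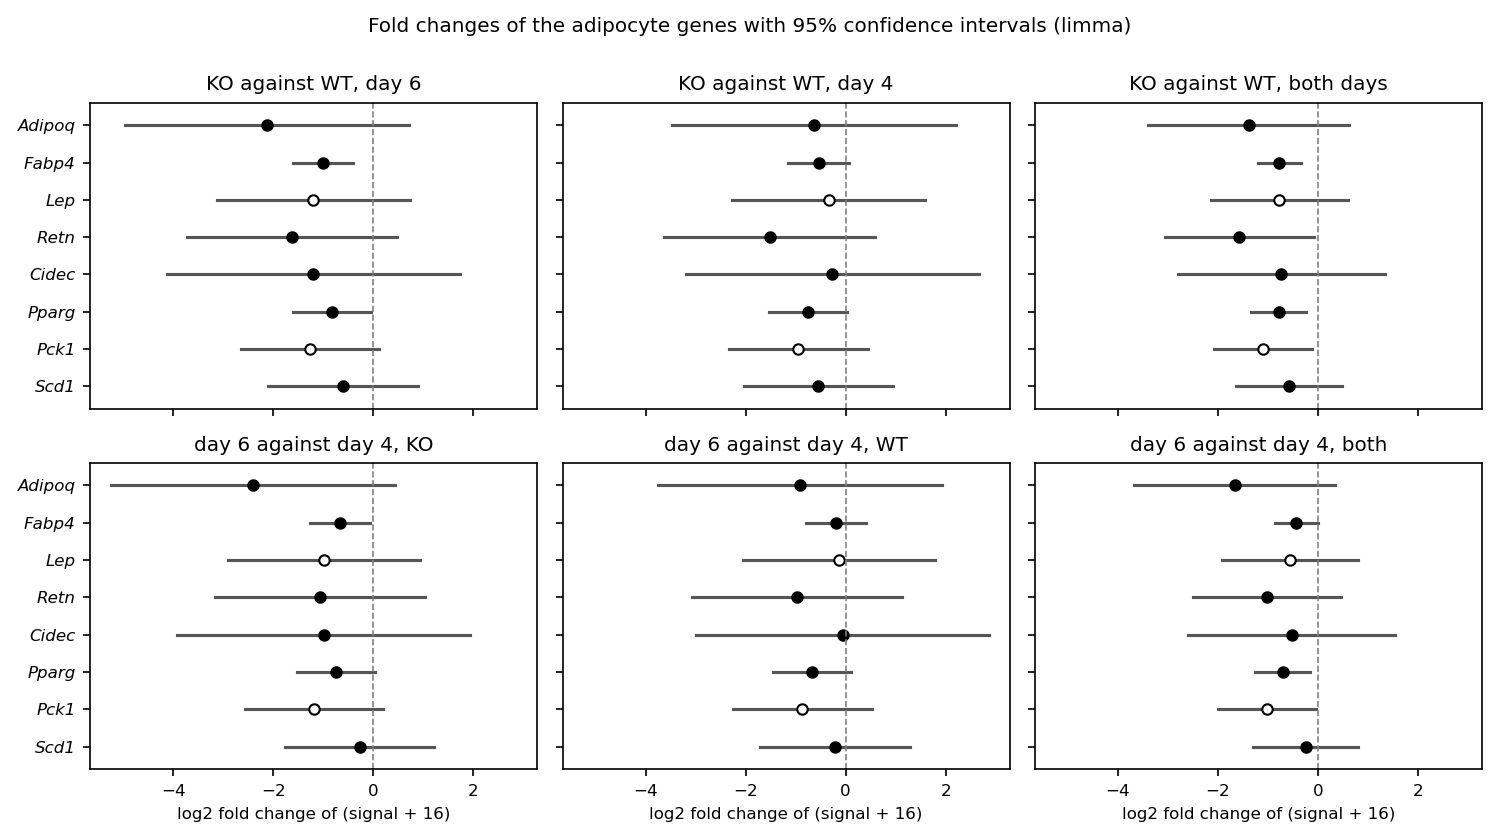
Log2 fold change of (signal + 16) of each measured adipocyte gene with its unadjusted 95% confidence interval from limma, for KO against WT (top row) and day 6 against day 4 (bottom row). Filled points are genes that were tested and open points the 2 genes below the limit. Every point lies below 0, and most intervals include 0.

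Between day 6 and day 4 the estimates of the 8 measured adipocyte genes were again below 0, without a call, in KO tumours (50% of all tested genes), in WT tumours (48.9%) and over both (50.2%). With arrays centred on their medians, which shifted all estimates between the days by 0.17 to 0.18, or quantile normalised, Lep and Cidec turned above 0 in WT tumours. In KO tumours the median of the 6 tested genes was -0.86, led by Adipoq at -2.41 (SE 1.24, adjusted p = 0.259, limma), and in WT tumours it was -0.44. In KO tumours 0 of 6 passed, where 6.23% of all tested genes did. In WT tumours 0 of 6 passed, where 5.83% did. Unadjusted, 1 of 6 genes in KO tumours (Fabp4) and 0 of 6 in WT tumours had a p under 0.05, where 26.1% and 25.6% of all tested genes had one. The day 6 arrays were below the day 4 arrays without overlap for 4 of 6 genes in KO tumours (Adipoq, Fabp4, Retn and Pparg, against 30.7% of all tested genes) and for 1 of 6 in WT tumours (Pparg, against 24.6%). With the KO arrays fitted alone, Adipoq and Fabp4 passed (adjusted p = 0.0167 and 0.0264), with 1747 genes (13.5%) called where the fit of all arrays called 809.

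Over both genotypes, 0 of 6 passed, where 23.2% of all tested genes did. Pparg came closest at -0.70 (SE 0.24, adjusted p = 0.0684, limma), and with a variance that did not depend on the signal it passed (adjusted p = 0.0216), as did 18.4% of all tested genes. Fabp4 was at -0.43 (SE 0.19, adjusted p = 0.129), and Pparg and Fabp4 were the 2 of 6 with an unadjusted p under 0.05, where 37.7% of all tested genes had one. Without the first WT array of day 4, Fabp4 and Cidec passed (-0.63 and -1.68, adjusted p = 0.0219 and 0.0470), where 21% of all tested genes did. No gene had all day 6 arrays below all day 4 arrays (0 of 6, 11.6% of all tested genes).

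The spread inside the groups was wider for the adipocyte genes than for most genes. The median log2 gap between the 2 arrays of a group was 0.97 over the 6 tested adipocyte genes and 0.18 over all tested genes in KO tumours of day 6, and 1.58 and 0.21 in WT tumours of day 6. At day 4 it was 0.37 and 0.15 in KO tumours, and 1.90 and 0.25 in WT tumours. The 90th percentile over all tested genes was 0.50 to 0.75 in the 4 groups. The 2 groups with the widest gaps were the WT groups, where 1 array of each pair was rich in adipocyte transcripts and the other was not.

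Over the 8 arrays the profile of Adipoq was shared by the other adipocyte genes to different degrees. Pearson's r with Adipoq was 0.95 for Lep, 0.93 for Retn, 0.88 for Fabp4, 0.85 for Scd1, 0.84 for Cidec, 0.82 for Pck1 and 0.73 for Pparg, and Spearman's rho was 0.98, 0.93, 0.88, 0.86, 0.81, 0.79 and 0.74 in the same order. The 2 arrays farthest from the median of Adipoq were the second WT array of day 4 and the first KO array of day 6. Without them r was still 0.94 for Lep and 0.86 for Retn. It was 0.71 for Fabp4, 0.66 for Cidec, 0.65 for Scd1, 0.58 for Pck1 and 0.31 for Pparg. Within the 4 arrays of day 6 and the 4 of day 4, r was 0.98 and 0.97 for Lep, 0.97 and 0.98 for Cidec and 0.96 and 0.89 for Retn. It was 0.85 and 0.98 for Scd1, 0.84 and 0.88 for Fabp4, 0.70 and 0.88 for Pck1 and 0.69 and 0.53 for Pparg. These are descriptions over arrays scaled in the same way, with no test.

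Of 12970 other tested genes, 17 (0.131%) had an r over 0.9 with Adipoq. The 10 most alike were Prkag2 (0.97), Rab29 (0.96), Cyp2e1 (0.95), Sec11c (0.94), Gstm4 (0.94), a probe set annotated as Mir425 (0.94), Pcx (0.93), Kmo (0.92), Fam221a (0.92) and Pradc1 (0.91). Prkag2 encodes a regulatory subunit of AMP-activated kinase and Pcx encodes pyruvate carboxylase, which feeds fatty acid synthesis in fat. Cyp2e1, a cytochrome P450 expressed in fat, was in the list of white adipocyte markers and had 42.3 and 95.1 in KO tumours and 262.7 and 89.5 in WT tumours at day 6, and 216.6 and 222.4 in KO tumours and 161.7 and 754.7 in WT tumours at day 4. Its highest array was 17.8-fold above its lowest, while the other 9 genes ranged by 1.53-fold to 3.38-fold, so they shared the order of the arrays on a small scale. For Adipoq that ratio was 41.8.

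**Figure D3:**
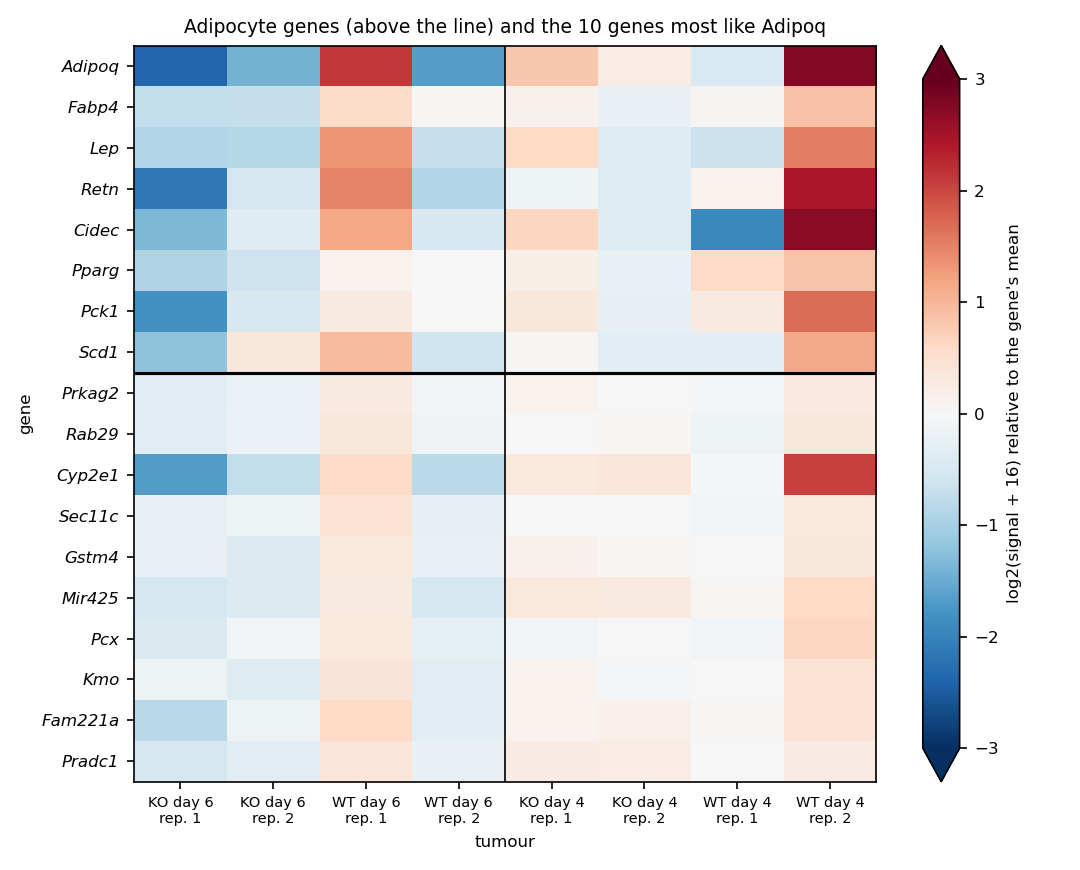
Log2(signal + 16) relative to each gene's mean over the 8 arrays (colour, red above and blue below) for the 8 measured adipocyte genes and, under the line, the 10 genes most like Adipoq. The columns of WT day 6 replicate 1 and WT day 4 replicate 2 are red in all 18 genes, in pale shades for most of the lower ones.

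Other markers of white adipocytes were lower in their KO estimates at day 6, and less evenly so at day 4. Of 15 listed genes 14 had a probe set and 12 were tested, and at day 6 all 12 had estimates below 0 in KO against WT tumours (51.7% of all tested genes), with a median of -0.45 and 0 called. At day 4, 8 were below and 4 above 0 (48.3% of all tested genes below), with a median of -0.16 and 0 called. Relative to each gene's mean, the list's median in the day 6 arrays was -0.50 and -0.18 in KO and 0.40 and -0.44 in WT tumours. On that measure the 2 groups of day 6 overlapped. Being measured on the same arrays, these markers do not count as separate observations of a direction. Their summed signal was 3234.9 to 19084.8 in KO tumours and 4793.2 to 20862.4 in WT tumours at day 6, and 8992.5 to 10952.2 in KO tumours and 4933.2 to 30125.7 in WT tumours at day 4. The brightest of them on average was Car3, carbonic anhydrase 3, which is abundant in fat and in slow muscle. Car3 had 249.4 and 16049.5 in KO tumours and 16025 and 1547.8 in WT tumours at day 6, and 5493.5 and 6824.3 in KO tumours and 1652 and 22821.6 in WT tumours at day 4. It was high in the second KO array of day 6, where Adipoq was 160.7. Trarg1, a partner of the insulin-responsive glucose transporter, had 110.4 and 40.5 in KO tumours and 175.2 and 91.0 in WT tumours at day 6.

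Markers of other tissues of the injection site moved between arrays too, and only partly with the adipocyte genes. Of 16 skeletal muscle markers (16 with a probe set, 14 tested), the median was 4.97 log2 units above the mean in the second WT array of day 4, 3.18 in the second KO array of day 6 and 1.59 in the second KO array of day 4, and -1.73 to -2.18 in the other 5. Their summed signal was 12511.4 to 84656.4 in KO tumours and 10737.1 to 14778.4 in WT tumours at day 6, and 9032 to 36902.5 in KO tumours and 6147.3 to 200775 in WT tumours at day 4. The tumour richest in adipocyte transcripts was thus also the richest in muscle transcripts, while the second richest, the first WT array of day 6, had low muscle values (-1.73). Atp2a1, the calcium pump of fast muscle, had 117.1 and 1609.2 in KO tumours and 82.5 and 73.0 in WT tumours at day 6, and 164.8 and 729.1 in KO tumours and 152.8 and 5080.6 in WT tumours at day 4. Eno3, the muscle enolase and brightest of the list, ranged only over 4804.1 to 15026.2. The part of muscle or of the depth of dissection in the adipocyte values was not tested.

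Of 15 cornified epidermis markers (14 with a probe set, 5 tested) the median was 3.59 in the second KO array of day 6 and -0.71 to -0.20 in the other 7, with a summed signal of 1838.8 to 38845.4 in KO tumours and 1739.6 to 1996.4 in WT tumours at day 6. Sbsn, suprabasin, the brightest, had 4939.5 in that array and 703.3 to 2451.7 in the other 7, and Lor, loricrin of the cornified envelope, had 2445.7 there and at most 144.6 in the others. Sebocyte markers (12 listed, 8 with a probe set, 4 tested) had a median of 1.90 in that array, led by Krt79 and Fa2h at 1682.6 and 1692.7, which were 39.0 to 152.7 and 136.0 to 246.3 in the other 7 arrays. Cyp11a1, a steroid-synthesis enzyme, had 340.0 there and 71.2 to 354.7 in the others. Their summed signal was 547.1 to 5508.5 in KO tumours and 734.1 to 948.2 in WT tumours at day 6, and 629.0 to 855.7 in KO tumours and 720.8 to 738.0 in WT tumours at day 4. That KO tumour was the one in which the brighter Scd1 probe set stood higher than the order of Adipoq would place it. The dimmer Scd1 set did not stand higher there. The part of sebaceous cells in the Scd1 values of that tumour was not tested.

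**Figure D4:**
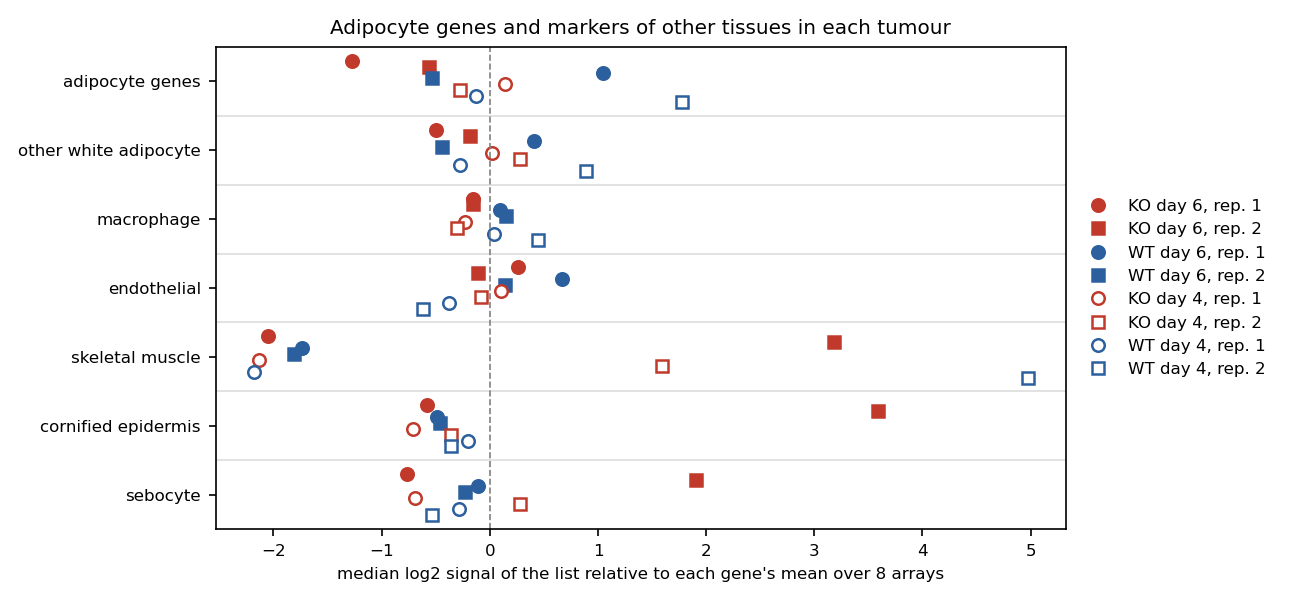
Median log2 signal of each list in each tumour, relative to each gene's mean over the 8 arrays, over the tested genes of the list. Filled points are day 6 and open points day 4, red KO and blue WT. The adipocyte genes are highest in WT day 4 replicate 2 and WT day 6 replicate 1, muscle markers in WT day 4 replicate 2, KO day 6 replicate 2 and KO day 4 replicate 2, and epidermis and sebocyte markers in KO day 6 replicate 2.

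For macrophages and endothelium, which make some Fabp4 and Pparg, the list medians varied less over the arrays than that of the adipocyte genes. Relative to each gene's mean, the median was -1.28 to 1.78 for the adipocyte genes and -0.61 to 0.67 for endothelial markers. Macrophage markers (12 listed, 11 with a probe set and tested) had medians of -0.31 to 0.45, lowest in the 4 KO arrays, and a summed signal of 139040 to 141289 in KO tumours and 161222 to 162205 in WT tumours at day 6, and 119418 to 129169 in KO tumours and 156792 to 180509 in WT tumours at day 4. Lyz2, the brightest of them, had 31240.3 to 37350.8 in KO arrays and 35149.5 to 40059.3 in WT arrays. Between the days over both genotypes 2 of 11 were called, where 23.2% of all tested genes were. Msr1, a scavenger receptor, was higher at day 6 (0.76, adjusted p = 0.00456, limma, called in 20 of 20 other settings), and Adgre1, the F4/80 antigen, was lower (-0.36, adjusted p = 0.0493, called in 8 of 20). At day 6, 0 of 11 were called between KO and WT, with a median of -0.39, beside -0.82 for Pparg and -1.01 for Fabp4. At day 4 the median was -0.60 with 0 called, beside -0.75 for Pparg and -0.54 for Fabp4. Endothelial markers (10 listed and tested) had a median of -0.30 in KO against WT at day 6 and 0.42 at day 4, with 0 called on either day. Cdh5, Tie1, Esam and Pecam1, which encode junction and surface proteins of vessels, were the 4 of 10 called higher at day 6 than at day 4 over both genotypes (1.17, 0.79, 0.67 and 0.66, adjusted p = 0.00417, 0.0474, 0.0348 and 0.0151, limma). Their calls were kept in 20, 10, 12 and 18 of 20 other settings. In WT tumours alone the median of the list between the days was 0.88 with 4 called, where 5.83% of all tested genes were. In KO tumours alone it was 0.04 with 0 called, where 6.23% were. The difference between the KO effects at day 6 and day 4 had a median of -0.76 over the list. It passed for 0 of 10 (limma, adjusted p of at least 0.995), as for 0% of all tested genes, so the 2 genotypes are not shown to differ here. Single genes varied to different degrees, with 31240.3 to 40059.3 for Lyz2, 2598.6 to 8227.7 for Msr1, 750.1 to 2705.6 for Cdh5 and 5788.5 to 17802.1 for Fabp4. The part of macrophages or endothelium in the Fabp4 and Pparg values was not tested.

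Brown adipocyte markers (10 listed and with a probe set, 4 tested) had a summed signal of 944.7 to 2628.9 in KO and 746 to 799.6 in WT tumours at day 6. At day 4 it was 1227.1 to 1936.6 in KO and 1165.8 to 1784.2 in WT tumours. At day 6, 0 of 4 were called between KO and WT, with 3 estimates above 0, 1 below and a median of 0.20. Ucp1, the uncoupling protein that defines brown fat, had 2.6 to 30.2 in all arrays. Cidea, below the limit for testing, had 188.7 in the second KO array of day 6 and 4.1 to 33.3 in the others. Both are named here after their values were seen. Cox7a1, a subunit of mitochondrial cytochrome oxidase that muscle also makes, was lower at day 6 than at day 4 over both genotypes (-0.88, SE 0.17, adjusted p = 0.0106, limma), with 224.2 to 377.2 at day 6 and 437.7 to 542.5 at day 4. Dio2, the deiodinase that activates thyroid hormone in brown fat, had 78.2 to 173.9 at day 6 and 103.3 to 254.4 at day 4 (adjusted p = 0.482).

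In the lists of pathways in which the adipocyte genes work, 0 genes were called between KO and WT at day 6, and part of each list but 1 was called between the days over both genotypes, where 23.2% of all tested genes were. In the fatty acid uptake and triglyceride synthesis list (19 genes, 16 tested), 0 were called between KO and WT at day 6 (median -0.09), and between the days over both genotypes 2 rose and 2 fell, 4 of 16 and so near the share of all tested genes. The genes of this and the following lists were also tested under 20 other settings, and the number of these that kept the call is given. Elovl6, a fatty acid elongase, was higher at day 6 (0.98, SE 0.21, adjusted p = 0.0151, limma, called in 16 of 20 settings), as was Dgat1, which completes triglycerides (0.36, adjusted p = 0.0289, 11 of 20, not after quantile normalization, and below 0 in 1 of 20). Lpin1, a phosphatidate phosphatase, was lower (-0.82, SE 0.14, adjusted p = 0.00664), as was Me1, malic enzyme (-0.60, adjusted p = 0.00515), both in 20 of 20. Of the lipid droplet and lipolysis list (16 genes, 13 tested), 0 were called in any of the comparisons, and Mgll, monoacylglycerol lipase, came closest between the days at -0.62 (SE 0.24, adjusted p = 0.0962), followed by Cav1, caveolin 1 of the cell membrane, at -0.20 (adjusted p = 0.107).

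Among adipogenic transcription factors (16 genes, 14 tested), 0 were called between KO and WT at day 6 (median -0.07), and 3 fell and 0 rose between the days over both genotypes, 3 of 14 where 23.2% of all tested genes were called. Ebf1 and Ebf2, early factors of the adipocyte lineage, were at -1.14 and -1.07 (SE 0.23 and 0.29, adjusted p = 0.0104 and 0.0311, limma), and Klf9 at -0.99 (SE 0.20, adjusted p = 0.0110). Ebf1 kept its call in 20 of 20 settings, Ebf2 in 12 and Klf9 in 19. Ebf1 had 465.5 and 346.5 in KO tumours and 474.1 and 376.4 in WT tumours at day 6, against 1086.7 and 986.8 in KO tumours and 581.3 and 1198.4 in WT tumours at day 4. All 4 day 6 arrays were below all 4 day 4 arrays, as for 11.6% of all tested genes and none of the 6 tested adipocyte genes. Ebf1 was named for its call between the days, so this order is no separate observation.

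Adipokines other than the 4 above, and their receptors (12 genes, 11 tested), gave 5 lower and 1 higher call between the days over both genotypes (23.2% of all tested genes were called), and 0 between KO and WT at day 6. Rarres2, which encodes chemerin, was at -1.34 (SE 0.23, adjusted p = 0.00648, limma), Rbp4, the retinol carrier, at -0.96 (SE 0.25, adjusted p = 0.0278), Cdh13, which binds adiponectin, at -0.73 (SE 0.12, adjusted p = 0.00573), and Adipor2, an adiponectin receptor, at -0.59 (SE 0.14, adjusted p = 0.0207). Rarres2 and Cdh13 kept their calls in 20 of 20 settings, Rbp4 in 13 and Adipor2 in 14, which was not called after median centring (adjusted p = 0.0754). Of the hormone response list (12 genes, 8 tested), Pde3b, the phosphodiesterase through which insulin restrains lipolysis, was higher at day 6 (0.88, SE 0.12, adjusted p = 0.00321), and Irs2, an insulin receptor substrate, was lower (-0.79, SE 0.17, adjusted p = 0.0136), in 20 and 18 of 20 settings.

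Preadipocyte and adventitial fibroblast markers (11 genes, 10 tested) held the largest differences between the days among these adipose lists, with 4 lower and 2 higher calls (6 of 10, where 23.2% of all tested genes were called) and 0 calls between KO and WT at day 6. Dpp4, a marker of early adipose progenitors, had 381.1 and 309.3 in KO tumours and 344.9 and 302.6 in WT tumours at day 6, against 1834.9 and 2239.3 in KO tumours and 1375.6 and 2686 in WT tumours at day 4 (-2.51, SE 0.21, adjusted p = 0.00124, limma). Cd55, a complement regulator found on the same cells, was at -2.20 (SE 0.24, adjusted p = 0.00225), and Cd34, a progenitor marker shared with endothelium and the brightest of the list, at -0.60 (SE 0.14, adjusted p = 0.0189). Pdgfrb, a receptor of mural cells and fibroblasts, and Icam1, an adhesion molecule of committed preadipocytes, were higher at day 6 (0.92 and 0.73, adjusted p = 0.00225 and 0.0273). Dpp4, Cd55 and Pdgfrb kept their calls in 20 of 20 settings, Cd34 in 15 and Icam1 in 14. For Dpp4 and Cd55 all day 6 arrays were below all day 4 arrays, as for 11.6% of all tested genes, while Adipoq overlapped over both genotypes. Both genes were named for their calls between the days, so this order is no separate observation.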

How the data were processed

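RNA of 8 s.c. MOPC tumours (KO and WT hosts, day 6 and day 4, 2 arrays each) was hybridised to Affymetrix MG-430 2.0 arrays. Each deposited array lists a linear intensity for its probe sets, made by the authors with MAS5 according to the submitters' processing notes, in a version not given in the sources used here. All arrays had been scaled to a 2% trimmed mean of 1000. Arrays have no read depth, and their number limits the precision. Groups came from the labels.

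Of 45101 probe sets, 34958 had 1 gene symbol in the platform annotation, 932 had several and 9211 had none, and 34754 matched a GRCm38.p6 table by Entrez identifier, which changed 0 symbols. One probe set, that of highest mean log2 signal, stood for each of 18194 genes. Tests covered the 12976 genes whose mean reached the 40th percentile over the probe sets. To each intensity 16 was added before taking log2, and the values went into limma 3.58.1 (R 4.3.3) as 4 groups with 4 residual degrees of freedom and a variance trend. A gene was called where its p, adjusted by Benjamini-Hochberg over all tested genes, was under 0.05. Fold changes understate the changes of dim genes because of the added 16. Genes below the limit were fitted with all genes. Intervals are unadjusted. The adipocyte genes and the further lists were chosen with earlier results of these data known.

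Named are all adipocyte genes, the genes of each further list called between the days over both genotypes (at most 4 by size, filled up to 2 by smallest p), the brightest gene of each marker list, the 10 genes most like Adipoq, Xist and Eif2s3y, and the 3 targeted receptors. Lists of carcinoma and of milk protein genes were fitted as well. Krt8 and Csn3, their brightest genes, had 21917.4 to 35100.3 and 27.4 to 337.5 signal units, Cdh1 and Krt19 had 210.1 to 2441.6 and 6131 to 17346, and Wap had 25.2 to 135.2. The comparison of KO with WT at day 6 was tested on simulated data in which 200 of 12976 genes differed, and 64.8% of those set 1 log2 unit apart and 88.4% of those set 2 apart were recovered. These shares were not worked out for the adipocyte genes and cannot be carried over to them. Their median log2 gap inside the day 6 groups was 0.97 in KO and 1.58 in WT tumours, beside 0.18 and 0.21 over all tested genes. Alternatives were quantile normalization, median centring, pseudocounts of 1 and 64, a floor, other filters and probe set rules, no trend, the compared groups alone, a replicate block, the methods' t-test and leaving out arrays. Promoter sequences are RefSeq's, from 250 bases before to 50 after a start. Detection calls and quality ratios were not used here.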

Additional observations from a re-analysis of the deposited data

How the results depend on the processing

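Of 156 counts of called adipocyte genes under other settings 148 were the same, and of 1200 single fold changes 1127 kept direction and side of the threshold, 6 passed the test in addition and 67 changed sign. The t-test of the methods, unadjusted, called 1 of 6 genes in KO against WT at day 6 (5.86% of all tested genes), 2 over both days (3.73%), 1 between the days in KO (20.2%) and 1 in WT tumours (10.8%). A variance without trend called 1 gene between the days over both genotypes (18.4%), and the KO groups alone called 2 between the days (13.5%). The replicate block called 0 adipocyte genes in all 7 comparisons. Labels do not say what a number shares, deviations of same-numbered arrays correlated at -0.12 to 0.27, and over all tested genes the block called 325 in place of 809 between the days in KO tumours and 463 in place of 756 in WT tumours. Leaving out 1 array, the number called over both days was 0 to 1 for KO against WT and 0 to 2 for day 6 against day 4, the higher values without the first WT array of day 4. Where 1 array is left out, its partner stands alone and is assumed to vary like the other groups.

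The ranges of log2 fold change below, with 1 array left out or 2 together, are of genes whose estimate then changed sign, and of Fabp4 and Cidec where they passed the test. None was called with all 8 arrays. For KO against WT at day 6 the range was Scd1 -1.37 to 0.17. For KO against WT at day 4 the ranges were Adipoq -2.24 to 0.97, Lep -1.43 to 0.75, Cidec -2.59 to 2.05 and Scd1 -1.28 to 0.20. For KO against WT over both days the ranges were Fabp4 -0.97 to -0.58 and Cidec -1.89 to 0.43. For day 6 against day 4 in KO tumours the range was Scd1 -1.05 to 0.50. For day 6 against day 4 in WT tumours the ranges were Adipoq -2.79 to 0.97, Fabp4 -0.59 to 0.20, Lep -1.22 to 0.96, Retn -2.14 to 0.21, Cidec -2.37 to 2.26 and Scd1 -0.98 to 0.55. For day 6 against day 4 over both genotypes the ranges were Fabp4 -0.63 to -0.23, Cidec -1.68 to 0.64 and Scd1 -0.63 to 0.14. For the KO effect at day 6 minus that at day 4 the ranges were Adipoq -3.38 to 0.38, Lep -1.94 to 0.23, Retn -1.28 to 1.08, Cidec -3.25 to 1.39, Pparg -0.26 to 0.12, Pck1 -1.02 to 0.39 and Scd1 -0.83 to 0.71. Without the second KO array of day 6 and the second WT array of day 4 together, the estimates above 0 were Adipoq 0.97, Lep 0.75, Cidec 2.05 and Scd1 0.20 for KO against WT at day 4; Cidec 0.18 for KO against WT over both days; Adipoq 0.69, Fabp4 0.20, Lep 0.96, Retn 0.19, Cidec 2.26 and Scd1 0.52 for day 6 against day 4 in WT tumours; Cidec 0.39 for day 6 against day 4 over both genotypes. Other changes of sign between the days in WT tumours were 0.072 and 0.056 for Lep and 0.039 and 0.13 for Cidec after quantile normalization and median centring, and 0.22 for Cidec with a pseudocount of 1. For the KO effect at day 6 minus that at day 4 they were 0.10 for Fabp4 with the mean of its probe sets, 0.054 for Retn after quantile normalization, 0.062, 0.027 and 0.035 for Retn, Pparg and Pck1 with a pseudocount of 64, and 0.11 for Pck1 with the floor. The causes were not tested.

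Among all tested genes the calls ranged from 0 to 26 for KO against WT at day 6 (2 as reported), 0 to 11 at day 4 (2), 0 to 58 over both days (4), 1 to 1747 between the days in KO (809), 0 to 1784 in WT (756), 1163 to 3912 over both (3006) and 0 to 9 for the difference of the KO effects (0), adjusted settings only. The highest counts of KO against WT came without the first KO array of day 6 (26) or the first WT array of day 4 (11 and 58). At day 4 the count was 0 without either KO array of day 4 and with the adjusted t-test, and the lowest count between the days over both genotypes came without the second KO array of day 4. The highest counts between the days in WT tumours and over both genotypes came from median centring, after which 84.9% of calls over both genotypes were higher at day 6, in place of 58.7%, 84.3% in place of 59.6% in KO and 91% in place of 71.4% in WT tumours. Of KO against WT calls over both days 50% were higher in KO tumours after centring, in place of 75%. Fits of the compared groups alone were possible for 4 comparisons, and a t-test for all but the difference of the KO effects. With 2 arrays a group, the dim signals of Lep and Pck1 and gaps of up to 46.9-fold within a group limit what can be told, and a gene that did not pass is not shown to be unchanged.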
